A study of Mus musculus with 15 samples.

Results

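Expression of 10 genes of prostaglandin synthesis and reception was examined in 3 cell populations sorted from mouse melanoma. The genes were listed by symbol and found in the deposited table of normalized counts, which holds 53465 genes. They comprised the synthesis genes *Ptgs1*, *Ptgs2*, *Ptges*, *Ptgis* and *Ptgds*, the transcript *Ptgs2os* on the opposite strand next to *Ptgs2*, and the receptor genes *Ptger2*, *Ptger3*, *Ptger4* and *Ptgfr*. The list was drawn up with their levels in these libraries known, so all values of the 10 genes below are a description without a test.

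CAG-GFP transgenic mice, which express GFP in all tissues, carried tumors grown from injected B16-F0 cells, a mouse melanoma line, and tumors were taken on day 15. The GFP marks every cell of the host and not the endothelium alone, so in these libraries the populations rest on the sort. Host cells that were CD34 positive and free of blood lineage markers were sorted by CD31 and VEGFR2 into endovascular progenitor (EVP, low for both), transit amplifying (TA, intermediate CD31 and low VEGFR2) and definitive differentiated (D, high for both) cells. In separate mice the paper switched on YFP in cells that express *Cdh5*. Most CD34 positive tumor cells free of lineage markers then carried YFP, which the paper takes to show their endothelial origin. The mice of these libraries did not have that label. Each population had 5 RNA sequencing libraries. The study used adult mice of both sexes, and the sources used here do not state how many animals made up a library. The labels give replicate numbers but no animal, so p-values below measure the spread between these libraries.

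Prostaglandins are short-lived lipid signals made from arachidonic acid. Phospholipases free arachidonic acid from membranes, the cyclooxygenases turn it into prostaglandin H2, and a terminal synthase makes each product from that, among them prostaglandin E2, prostacyclin and prostaglandin D2. The products leave the cell and act through G protein-coupled receptors, and in vessels prostacyclin and prostaglandin E2 are known for widening vessels, while thromboxane narrows them and activates platelets.

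Between 5394356 and 26513073 reads were counted on genes per library (median, 19049194). A level of 3 reads, taken as the limit of detection, equalled 1.81 to 10.5 normalized counts, and this limit covers counting error only. The replicate 1 libraries stood apart: each had the fewest reads of its population, *Gm10800* took 8.50% to 10.6% of their reads against at most 0.701% in the other 12 libraries, and 81.6% to 98.3% of 1106 olfactory receptor genes had a read in them, against 2.89% to 71.0% elsewhere. Where leaving these libraries out changed a call or moved a ratio by more than 1.5 times, the value without them is given. Of 10 endothelial markers, the summed level was 2399 to 4490 normalized counts in EVP, 6105 to 78701 in TA and 109874 to 174081 in D. Fibroblast markers, also 10, ran the other way, with sums of 851533 to 1510760 in EVP, 193856 to 611275 in TA and 1160 to 4211 in D. *Pecam1*, *Cdh5* and *Kdr* were detected in every EVP library, at medians of 217, 49.2 and 538 normalized counts against 21781, 9254 and 16861 in D. *Tek*, also among the 10 endothelial markers, differed far less between EVP and D. Its median was 1723 normalized counts for the EVP libraries, beside 2104 for D and 652 for TA. The median endothelial sum of the EVP libraries was 2572, so *Tek* made up much of it. The labels place all 3 populations in an endothelial hierarchy, and by these markers the EVP libraries held far more fibroblast than endothelial transcripts. In these bulk libraries fewer cells of a type and less RNA per cell cannot be told apart.

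The region upstream of *Ptgs2* is printed because *Ptgs2* and *Ptgs2os* start there on opposite strands and both were highest in EVP. The RefSeq starts lie 157 bases apart, and in the GENCODE annotation the genes do not overlap, with 67 bases between them. The 250 bases before the RefSeq start of *Ptgs2* (GRCm38.p6, chr1:150099781-150100030, plus strand) carried 1 GC box (GGGCGG) and 1 C/EBP palindrome (TTGCGCAA), in capitals. A stretch of 30 bases just after the start (chr1:150100033-150100062, plus strand) carried a cAMP response element core (ACGTCA) that overlaps an E-box (CACGTG), in capitals. The same upstream window is shown for *Ptges* (chr2:30903298-30903547, minus strand), whose capitals are 2 GC boxes, and for *Ptgs1* (chr2:36230176-36230425, plus strand), the other cyclooxygenase gene, in which none of the searched motifs was found. The *Ptges* window is upstream of the RefSeq start only, since the GENCODE gene (chr2:30889471-30929863) starts further upstream and contains it.
Ptgs2 upstream: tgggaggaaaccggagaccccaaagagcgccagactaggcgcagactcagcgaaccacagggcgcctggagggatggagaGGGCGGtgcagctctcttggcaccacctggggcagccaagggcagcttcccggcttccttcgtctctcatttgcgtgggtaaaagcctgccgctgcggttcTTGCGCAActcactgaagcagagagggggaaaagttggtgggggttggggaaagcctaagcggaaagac
Ptgs2 site after start: agtcaccactACGTCACGTGgagtccgctt
Ptges upstream: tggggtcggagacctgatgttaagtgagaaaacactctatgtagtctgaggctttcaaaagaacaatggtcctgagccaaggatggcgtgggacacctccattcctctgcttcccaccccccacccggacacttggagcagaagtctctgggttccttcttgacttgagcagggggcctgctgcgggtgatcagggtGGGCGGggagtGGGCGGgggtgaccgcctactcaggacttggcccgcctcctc
Ptgs1 upstream: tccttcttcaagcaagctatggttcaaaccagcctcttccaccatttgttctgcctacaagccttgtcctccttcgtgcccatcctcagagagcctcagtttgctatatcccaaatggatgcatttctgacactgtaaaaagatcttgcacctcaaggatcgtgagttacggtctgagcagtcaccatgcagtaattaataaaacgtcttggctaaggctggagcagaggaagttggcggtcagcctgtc

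RefSeq windows of 300 bases, from 250 before to 50 after the start, were found for 9 of the 10 genes, with *Ptgis* as the exception. The motifs were chosen from knowledge of the *Ptgs2* promoter, and both strands were searched. The C/EBP palindrome was present in 0.183% of 32851 such windows, and the *Ptgs2* and *Ptgs2os* windows shared the same match, since they overlap by 256 bases. Likewise they shared 1 ACGTCA and 1 CACGTG, which occurred in 7.51% and 7.15% of all windows. GGGCGG was found in the windows of 6 of the 9 genes, with 1 site shared by *Ptgs2* and *Ptgs2os*, and in 35.7% of all windows. TGANTCA, an AP-1 motif, was found in 1 of the 9 (*Ptgds*) and in 7.81% of windows. TATAAA (13.6% of windows) and an NF-kB motif (4.79%) were found in none of the 9. The search would miss variants of these letters and any site further than 250 bases before or 50 bases after the annotated start. This absence therefore does not describe the whole promoter. A match is a description of letters and not a measured binding site.

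*Ptgs1* (ENSMUSG00000047250, chr2:36230426-36252272) encodes cyclooxygenase-1, the constitutive form in many tissues. In EVP replicates 1 to 5 it had 927, 1058, 1072, 868 and 667 normalized counts. In TA the values were 620.5, 485, 241, 223 and 294, and in D 594.5, 525, 349, 502 and 873. Every EVP library lay above every TA library, while EVP and D overlapped. The EVP mean of 918 ± 165 (SD, n = 5) was 2.46 times the TA mean of 373 ± 173, with a log2 fold change of 1.40 (SE 0.30), and 1.62 times the D mean of 569 ± 192. *Ptgs1* was thus the 1 member that was lowest in TA, with a log2 difference between TA and D of -0.66 (SE 0.30).

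*Ptgs2* (ENSMUSG00000032487, chr1:150100031-150108227) encodes cyclooxygenase-2, the inducible form. Its normalized counts were 12661, 2238, 6353, 4694 and 5389 in EVP, 1679, 2202, 1738, 1815 and 2769 in TA, and 284, 98.8, 68.0, 100.7 and 68.3 in D. All EVP and TA libraries lay above all D libraries, and EVP overlapped TA through EVP replicate 2. The EVP mean of 6267 ± 3885 (SD, n = 5) was 50.5 times the D mean of 124 ± 90.9, and the TA mean of 2041 ± 456 was 16.5 times it. The log2 fold changes were 5.66 (EVP minus D), 1.43 (EVP minus TA) and 4.23 (TA minus D), each with an SE of 0.41. EVP replicate 1 was the highest of all libraries and D replicate 1 the highest of the D libraries. Without the replicate 1 libraries, the ratio of means was 55.6 between EVP and D and 25.4 between TA and D.

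*Ptgs2os* (ENSMUSG00000097028, chr1:150074873-150099963, minus strand), a noncoding transcript, had 709, 191, 436, 159.8 and 118 normalized counts in EVP. TA libraries had 31.0, 1.76, 4.46, 43.1 and 35.5, and D libraries had 13.7, 0, 0, 3.0 and 0. No EVP library overlapped TA or D, and TA overlapped D. EVP was 96.5 times D in mean level and 13.9 times TA, with log2 fold changes of 6.83 and 4.10 (SE 0.94). Without the replicate 1 libraries the ratio between EVP and D was 301 and that between TA and D moved from 6.92 to 28.2, but the D mean then rested on 4 reads in 1 library. On a scale of normalized counts per kb of exon, *Ptgs2os* stood at 74.6 ± 57.5 in EVP beside 1368 ± 848 for *Ptgs2*. Smart-Seq2 reads do not carry the strand, so a transcript read past the end of either gene cannot be assigned to its strand.

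The 2 cyclooxygenase genes differed in their balance between populations. Per kb of exon, *Ptgs2* made up 64.2% to 92.1% of the sum of *Ptgs1* and *Ptgs2* in EVP (median 83.4%) and 69.6% to 88.9% in TA (median 85.9%). In D it made up 6.22% to 28.8% (median 14.2%), and the highest D value was that of replicate 1. EVP and TA shares overlapped, and no D library reached the range of either.

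**Figure D1:**
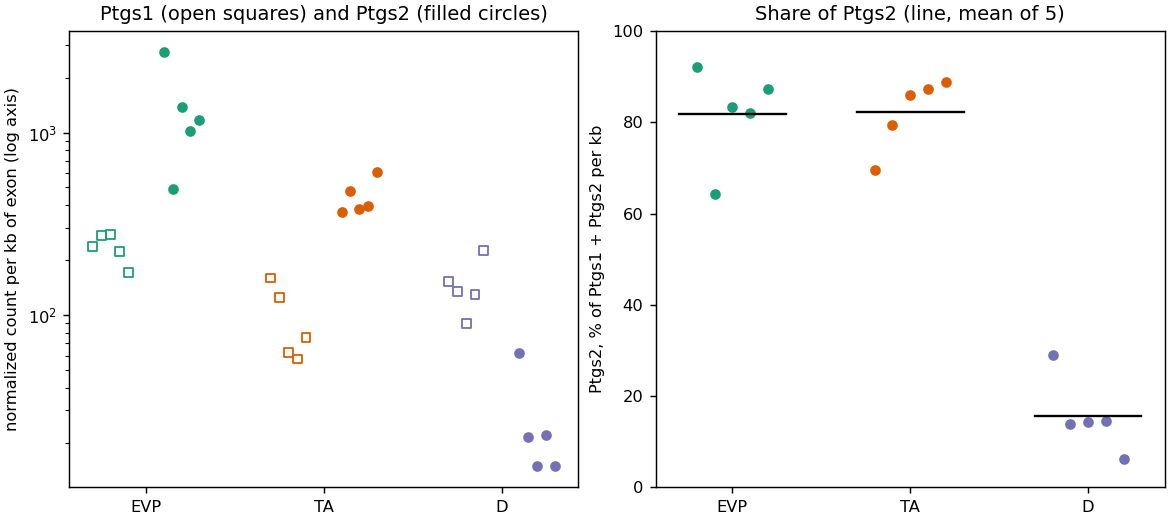
Left, *Ptgs1* (open squares) and *Ptgs2* (filled circles) in each of 15 libraries as normalized counts per kb of exon on a log axis, with replicates 1 to 5 from left to right. Right, the *Ptgs2* share of the summed level in percent, with the mean of 5 libraries as a line: every D library lies at or below 28.8% and every EVP and TA library at or above 64.2%.

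*Ptges* (ENSMUSG00000050737, chr2:30889471-30929863) encodes the inducible microsomal prostaglandin E synthase. It had 990.1, 1101, 845, 1515 and 828 normalized counts in EVP, 217, 512.5, 289, 345 and 596 in TA, and 30.2, 14.7, 63.3, 12.8 and 9.07 in D. The 3 populations did not overlap and fell in the order EVP, TA, D. EVP (1056 ± 280; SD, n = 5) was 2.69 times TA (392 ± 158) and 40.6 times D (26.0 ± 22.4). The log2 fold change was 5.60 between EVP and D, 1.49 between EVP and TA and 4.11 between TA and D (SE 0.44).

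*Ptgis* (ENSMUSG00000017969, chr2:167191805-167240604), which encodes prostacyclin synthase, followed the same order. EVP libraries had 2851, 1879, 2282, 1542 and 1547 normalized counts, TA libraries 405, 533, 633, 255 and 726, and D libraries 75.5, 0, 15.6, 12.0 and 0. Again no 2 populations overlapped. EVP was 3.96 times TA and 97.9 times D in mean level, and the log2 fold changes were 2.03 and 8.14 (SE 0.89). Without the replicate 1 libraries the ratio to D was 262 for EVP and 77.6 for TA, against 24.7 for TA with them. *Ptgis* overlaps 2 noncoding genes on the other strand, *1110018N20Rik* and *Gm14291*, whose reads cannot be told apart from its own without strand.

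*Ptgds* (ENSMUSG00000015090, chr2:25466709-25470046), the lipocalin-type prostaglandin D synthase, was highest in TA. Its normalized counts were 2620, 2511, 4323, 3382 and 2932 in TA, 2068, 742, 1247, 1347 and 2015 in EVP, and 707, 531, 1208, 654 and 784 in D. Every TA library lay above every EVP and D library, and EVP and D overlapped. TA (3153 ± 736; SD, n = 5) was 2.13 times EVP (1484 ± 559) and 4.06 times D (777 ± 258). The log2 fold changes were 2.05 between TA and D, -1.15 between EVP and TA and 0.90 between EVP and D (SE 0.27). Without the replicate 1 libraries the value between EVP and D was 0.73 (SE 0.31), and its limma call was lost. Among the 10 genes *Ptgds* was the 1 with its highest mean in TA.

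*Ptger4* (ENSMUSG00000039942, chr15:5206661-5244187) and *Ptger2* (ENSMUSG00000037759, chr14:44988195-45003820) encode the EP4 and EP2 receptors of prostaglandin E2, which raise cAMP. *Ptger4* had 80.8, 172, 113, 290.1 and 250.3 normalized counts in EVP, 25.9, 149, 48.0, 342 and 204 in TA, and 12.4, 93.1, 20.3, 68.4 and 13.9 in D. *Ptger2* had 66.7, 22.2, 28.6, 36.0 and 40.8 in EVP, 12.1, 0.879, 17.9, 76.8 and 34.2 in TA, and 9.61, 32.7, 0, 12.8 and 3.63 in D. For both genes all pairs of populations overlapped. Between EVP and D the ratio of means was 4.36 for *Ptger4* and 3.31 for *Ptger2*, with log2 fold changes of 2.41 (SE 0.71) and 2.33 (SE 0.98). *Ptger4* shares bases with *Ttc33*, a protein-coding gene on the other strand, and *Ptger2* with *Gm49364* and *Gm17173*. *Ptgs1*, *Ptges* and *Ptgfr* each overlap 1 predicted gene, *Gm43621*, *Gm13400* and *Gm43618*.

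*Ptger3* (ENSMUSG00000040016, chr3:157566892-157645888) encodes EP3, the receptor of prostaglandin E2 that lowers cAMP. It had 59.7, 36.6, 49.9, 180.6 and 4.84 normalized counts in EVP, 19.0, 72.1, 3.35, 112 and 16.8 in TA, and 22.0 in D replicate 1. The other 4 D libraries had no read. The EVP mean was 15.1 times the D mean, and without the replicate 1 libraries it was at least 30.7 times the level of 3 reads per library. EVP and TA overlapped D through its replicate 1 alone, and they overlapped each other widely, at 66.3 ± 67.2 and 44.6 ± 45.9 (SD, n = 5). Between TA and D the ratio was 10.2, and at least 23.1 without the replicate 1 libraries.

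*Ptgfr* (ENSMUSG00000028036, chr3:151796502-151837630) encodes the receptor of prostaglandin F2 alpha. It had 569, 410.2, 119, 292 and 144 normalized counts in EVP, 25.9, 37.8, 135, 176 and 69.1 in TA, and 35.7, 1.63, 0, 0.751 and 0 in D. Every EVP library lay above every D library. TA overlapped EVP, and it overlapped D through replicate 1 of D alone. The EVP mean was 40.3 times the D mean and the TA mean 11.7 times it. Without the replicate 1 libraries these ratios were at least 109 and at least 47.2 against the level of 3 reads.

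**Figure D2:**
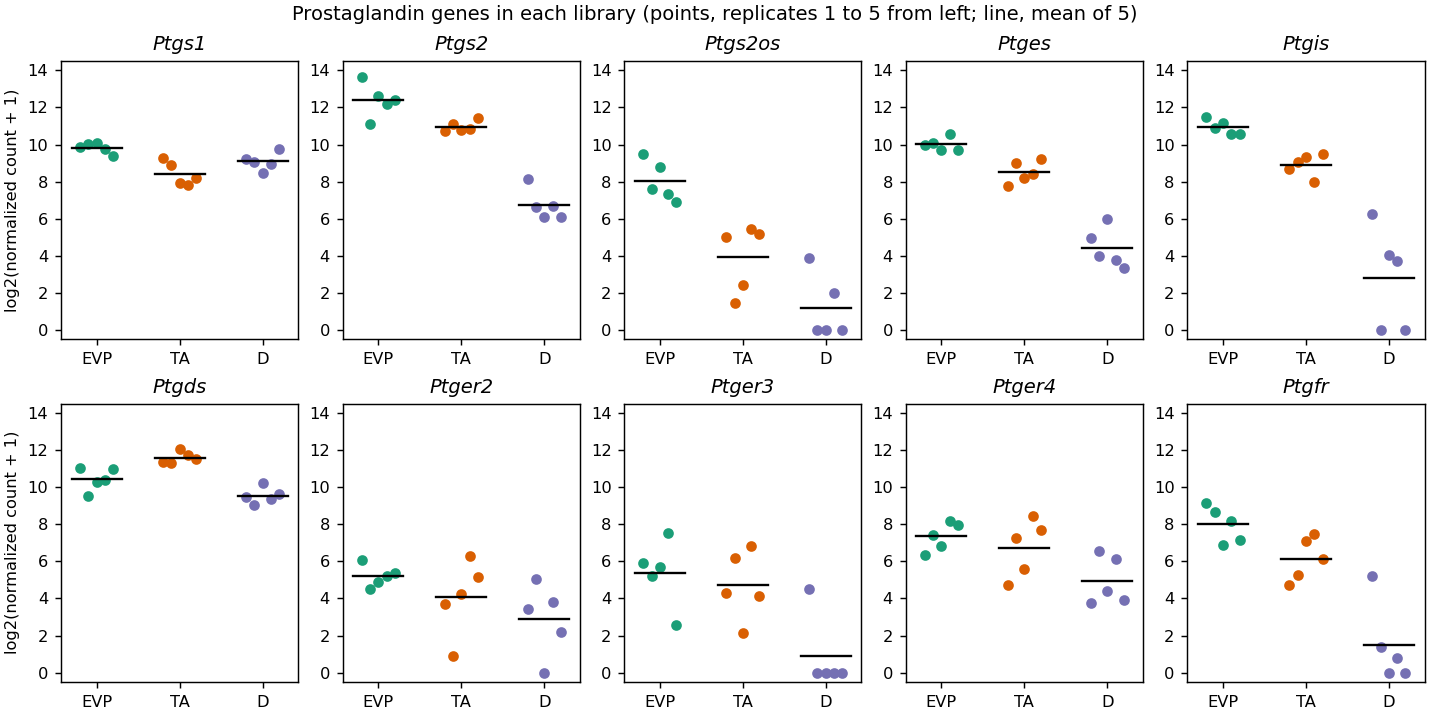
Log2(normalized count + 1) of the 10 prostaglandin genes in the EVP, TA and D libraries, 1 panel a gene on the same axis. Points are replicates 1 to 5 from left to right and the line is the mean of 5 libraries. *Ptges* and *Ptgis* step down from EVP to TA to D without overlap, and *Ptgds* peaks in TA.

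Compared per kb of exon, the order of mean levels changed between populations. In EVP it ran *Ptgs2* (1368 ± 848), *Ptgds* (900 ± 339), *Ptgis* (787 ± 216), *Ptges* (269 ± 71.2) and *Ptgs1* (236 ± 42.5), and the first 3 differed by less than the SD of *Ptgs2*, as did *Ptges* and *Ptgs1* by less than their own. In TA *Ptgds* led at 1912 ± 446, followed by *Ptgs2* (446 ± 99.5), *Ptgis* (199 ± 72.5), *Ptges* (99.7 ± 40.1) and *Ptgs1* (96.0 ± 44.6), and the last 2 differed by less than their SD. In D *Ptgds* (471 ± 156) and *Ptgs1* (146 ± 49.5) were followed by *Ptgs2* at 27.1 ± 19.9, and the other genes had means of 8.04 or less. The receptor genes stayed below the coding synthesis genes in EVP and TA, with the highest receptor mean at 45.2 ± 27.8 for *Ptgfr* in EVP.

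All 10 genes passed the filter of a mean of 5 normalized counts. Between EVP and D, 8 of the 10 had a limma adjusted p under 0.05, all higher in EVP, beside 19.0% of 25549 genes tested (11.6% higher in EVP), and the libraries of 5 did not overlap, all higher in EVP, beside 17.7% (10.2% higher in EVP). Between TA and D, 6 were past the threshold, all higher in TA, beside 12.5% of genes (8.21% higher in TA), and 4 did not overlap, all higher in TA, beside 9.25% (5.56% higher in TA). Between EVP and TA, 3 were past it, 2 higher in EVP and 1 in TA, beside 3.50% of genes (1.56% and 1.94%), and 5 did not overlap, 4 of them higher in EVP, beside 4.29% (2.70% higher in EVP). Since the list was made with these levels known, nothing is read from these shares. The 3 comparisons share libraries and are not independent of each other.

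The median log2 fold change of the 10 genes was 5.03 between EVP and D, 1.41 between EVP and TA and 3.28 between TA and D. Over all genes tested the medians were 0.46, 0.09 and 0.24. Quantile normalization moved these last medians to -0.05, 0.01 and -0.10, and scaling to the same total moved them to 0.37, -0.07 and 0.29. None of the 10 genes changed direction in a comparison under either scaling. Without the replicate 1 libraries, 7 of the 10 genes were past the threshold between EVP and D, 3 between EVP and TA and 7 between TA and D, beside 25.8%, 2.68% and 22.6% of the 19494 genes tested in that fit. In the fit without the replicate 1 libraries *Ptgds* was no longer past the threshold between EVP and D. Its limma adjusted p there was 0.111, against 0.0283 with all libraries. The call was also lost in 6 fits with 1 library left out. Such fits also lost the calls of *Ptger3* between TA and D (6 fits) and *Ptger4* between EVP and D (5 fits). Between EVP and TA they lost those of *Ptgds* (5 fits) and *Ptgs2os* (3 fits). Without the replicate 1 libraries *Ptgs2os* came to pass the threshold between TA and D, at a limma adjusted p of 0.0258 against 0.07. Between EVP and TA, 1 of the 10 was past the threshold without EVP replicate 3 or without TA replicate 3. The shares of all genes in these fits were 1.82% and 2.24%.

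**Figure D3:**
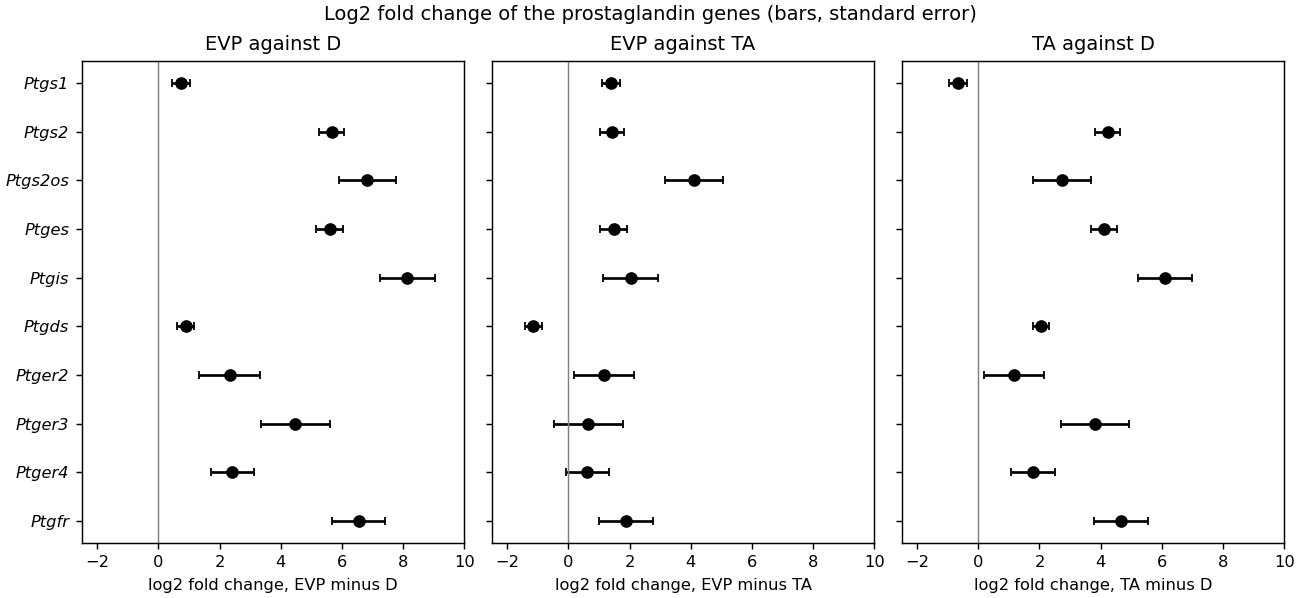
Log2 fold change of the 10 prostaglandin genes between EVP and D (left), EVP and TA (middle) and TA and D (right), from limma on log2(normalized count + 1). Points are estimates and bars their standard errors, with 5 libraries a population. Between EVP and D the values run from 0.73 for *Ptgs1* to 8.14 for *Ptgis*, all above 0.

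Markers of other cells moved with these genes. All 10 fibroblast markers were higher in EVP than in D and in TA than in D, and 6 were higher in EVP than in TA (limma, adjusted p under 0.05). *Pdgfra* had medians of 7463, 2320 and 7.86 normalized counts in EVP, TA and D. The medians of *Ptges*, *Ptgis*, *Ptgs2*, *Ptgs2os*, *Ptger2*, *Ptger3*, *Ptger4* and *Ptgfr* had the same order of populations, and those of *Ptgs1* and *Ptgds* did not. The 10 dissociation genes (*Fos*, *Egr1*, *Hspa1a* and others that respond to handling of cells) summed to 67028 to 216170 in EVP, 44835 to 106410 in TA and 38612 to 43619 in D. *Ptgs2* is itself known as a rapidly induced gene, and 5 of these genes were higher in EVP than in D, 4 in TA than in D and 0 in EVP than in TA. EVP replicate 1, the highest library for *Ptgs2*, had a dissociation sum of 85074, and EVP replicate 4, the highest for dissociation genes, had 4694 normalized counts of *Ptgs2*. The part of these cells and of handling in the results was not tested.

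Of 10 mast cell markers, the sum in TA was 4916 to 105364 normalized counts against 324 to 16995 in EVP and 2758 to 3769 in D. In D most of the sum was *Kit* (2105 to 3580), and *Tpsb2* was at 0 in 4 and *Cma1* in 3 of the 5 libraries. TA replicate 5, with the lowest mast cell sum of TA, had 2932 normalized counts of *Ptgds*, and TA replicate 4, with the highest, had 3382. Between TA and D 8 mast cell markers were higher in TA, and between EVP and D 6 were higher in EVP and 1 in D. Between EVP and TA 1 was higher in TA. Their part in the level of *Ptgds* was not tested.

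**Figure D4:**
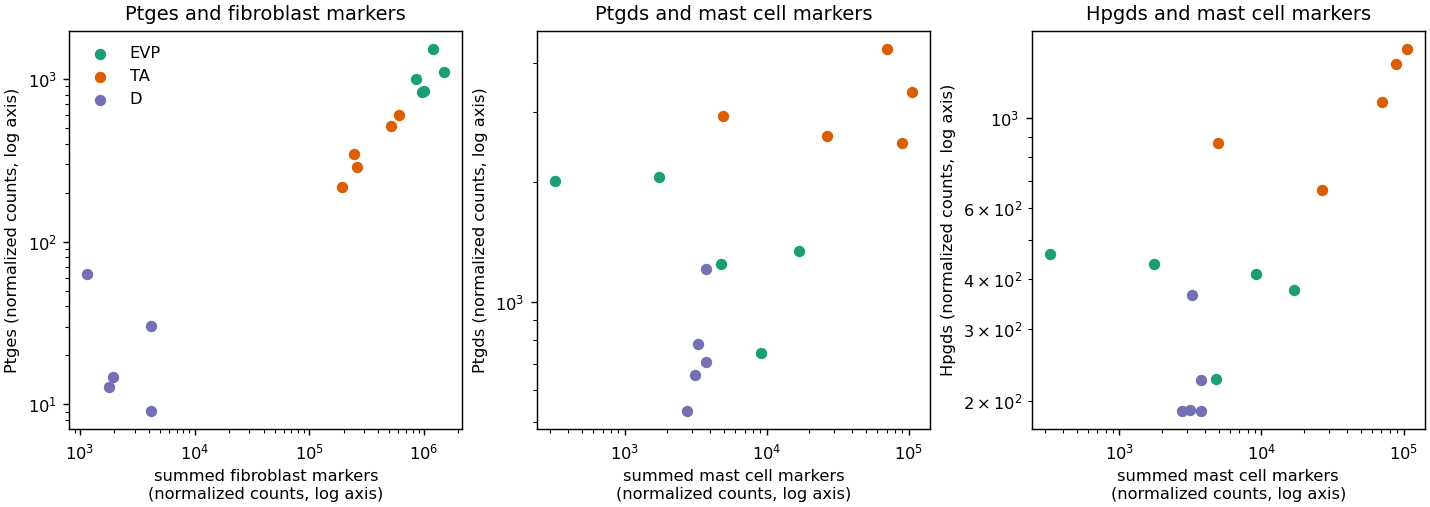
*Ptges* against the summed fibroblast markers (left), and *Ptgds* (middle) and *Hpgds* (right) against the summed mast cell markers, in normalized counts on log axes. Each point is 1 of 15 libraries, colored by population. *Ptges* and the fibroblast sum are high in EVP, intermediate in TA and low in D, and *Ptgds* and *Hpgds* are highest in the 5 TA libraries, whose mast cell sums run from 4916 to 105364.

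Further lists were checked in the same way. Mural markers (10) summed to 7449 to 34637 in EVP, 6231 to 157242 in TA and 5227 to 10913 in D, and macrophage markers (10) to 2554 to 13225, 10188 to 48549 and 4981 to 13678. The 7 melanoma genes summed to 29776 to 67410 in EVP, 69334 to 176152 in TA and 18213 to 47920 in D. Keratinocyte genes (6) had sums of 1017 to 5632, 893 to 67168 and 61.0 to 1735, lymphocyte genes (8) of 86.2 to 682, 172 to 3654 and 16.9 to 256, and platelet genes (6) of 1102 to 2289, 1701 to 4480 and 3301 to 5030. In each of these 6 lists the sums spanned the widest range in TA, and their part in the results was not tested. *Cd3d* in D and *Gp9* in EVP were at or under 3 reads in every library.

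The rest of the pathway was followed in a list of 37 genes of arachidonate release, terminal synthesis, transport, breakdown, other receptors and the leukotriene branch with other lipoxygenases, of which 32 passed the filter. *Pla2g4b*, *Pla2g2a*, *Ptger1*, *Ptgdr* and *Ptgdr2* did not. Between EVP and D, 12 of the 32 passed the threshold, 7 higher in EVP and 5 higher in D, beside 11.6% and 7.46% of all genes. Between TA and D, 10 passed, 7 higher in TA and 3 in D, beside 8.21% and 4.31%. Between EVP and TA, 4 passed, 1 higher in EVP and 3 in TA, beside 1.56% and 1.94%. The median log2 fold changes of the 32 genes were 0.47, 0.29 and -0.0033 for EVP minus D, TA minus D and EVP minus TA, against 0.46, 0.24 and 0.09 for all genes. Without the replicate 1 libraries, 11 passed between EVP and D, 12 between TA and D and 1 between EVP and TA, beside 25.8%, 22.6% and 2.68% of all genes in that fit.

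*Pla2g4a*, the cytosolic phospholipase that releases arachidonic acid, had 1649 ± 223 normalized counts in EVP, 913 ± 229 in TA and 70.7 ± 22.7 in D (SD, n = 5). Its lowest values were 1345 in EVP and 683 in TA, and its highest in D was 104. The log2 fold change was 4.57 (SE 0.24; limma, adjusted p = 7.92e-10) between EVP and D and 3.69 (adjusted p = 2.98e-08 by limma) between TA and D. Between EVP and TA it was 0.88, with an adjusted p of 0.0558 by limma. No D library overlapped EVP or TA for this enzyme, which acts before the cyclooxygenases. *Pla2g6*, a calcium-independent phospholipase, was higher in D than in EVP by 2.86 times (limma, adjusted p = 0.00809). Its limma adjusted p between TA and D was 0.051, and 0.0181 without the replicate 1 libraries. *Pla2g2e*, a secreted phospholipase, was 6.29 times as high in TA as in D (adjusted p = 0.00411 by limma) and 3.16 times as high in EVP as in D (adjusted p = 0.0361 by limma). This last call was lost when any 1 of EVP replicates 1, 3, 4 or 5 or D replicates 2, 3 or 4 was left out, with adjusted p up to 0.104 by limma.

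Of the 7 terminal synthases, *Hpgds*, the hematopoietic prostaglandin D synthase known from mast cells, was past the threshold. Its normalized counts were 665, 1365, 1100.5, 1482 and 869 in TA, 435, 412, 226, 376 and 461 in EVP, and 188, 189, 225, 189 and 366 in D. TA lay above all EVP and D libraries, with log2 fold changes of -1.50 for EVP minus TA (SE 0.28; limma, adjusted p = 0.00647) and 2.23 for TA minus D (limma, adjusted p = 2.94e-05). Both genes that make prostaglandin D2, *Ptgds* and *Hpgds*, thus had their highest mean in TA. The 2 TA libraries with the highest *Hpgds*, replicates 4 and 2, were also those with the highest mast cell sums, 105364 and 89138. TA replicate 1 had the lowest *Hpgds* of TA, 665, at a mast cell sum of 26526. TA replicate 5 had 869 normalized counts of *Hpgds* at the lowest mast cell sum of TA, 4916. The part of mast cells in the level of *Hpgds* was not tested. *Tbxas1*, thromboxane synthase, had 169 ± 62.1 in EVP, 344 ± 360.0 in TA and 121 ± 14.8 in D and passed in no comparison. In TA replicates 1 to 5 *Tbxas1* had 379, 26.4, 62.5, 924 and 326 normalized counts. The macrophage sums of these libraries were 10188, 14479, 22907, 48549 and 17928, and the part of macrophages was not tested.

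Transport and breakdown genes were mixed. *Slco2a1*, which encodes the prostaglandin uptake transporter, had 1167 ± 538 normalized counts in EVP, 439 ± 171 in TA and 907 ± 382 in D. It was higher in EVP than in TA by 2.66 times (limma, adjusted p = 0.0424), but 9 of the 15 fits with 1 library left out lost the call, with adjusted p up to 0.11 by limma. These were the fits without EVP replicates 1 to 4, TA replicates 3 to 5 or D replicates 2 or 4, and without all replicate 1 libraries the limma adjusted p was 0.0689. The limma adjusted p between TA and D was 0.0777, and 0.0155 without the replicate 1 libraries. *Abcc4*, an exporter of prostaglandins, was highest in D (1709 ± 388), 4.80 times EVP and 2.91 times TA (limma, adjusted p = 1.25e-05 and 0.000943). *Hpgd*, the dehydrogenase that inactivates prostaglandins, varied widely, from 89.9 to 896 in EVP, 36.8 to 518 in TA and 0.782 to 241 in D, and was not past the threshold, with a limma adjusted p of 0.056 for EVP against D.

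Of the reductases that act in later steps of breakdown, *Ptgr1* was 11.1 times as high in EVP as in D and 7.57 times as high in TA as in D (limma, adjusted p = 6.37e-06 and 0.000209), and 16.5 and 11.9 times without the replicate 1 libraries. *Ptgr2* was 1.81 times as high in EVP as in D (limma, adjusted p = 0.0105). *Zadh2* was 1.96 times as high in EVP as in D (limma, adjusted p = 0.0253), a call lost without EVP replicates 2 or 4 or D replicates 2, 3 or 5, with adjusted p up to 0.0585 by limma.

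The prostacyclin receptor gene *Ptgir* had 172, 398, 214, 589.8 and 391 normalized counts in EVP, 29.3, 513, 77.0, 337 and 1034 in TA, and 26.1, 0.816, 0, 8.26 and 30.2 in D. EVP lay above D in every library, and TA overlapped D through TA replicate 1. The log2 fold changes were 5.57 between EVP and D and 4.97 between TA and D (SE 1.00; limma, adjusted p = 0.000493 and 0.00279). The ratios of means were 27.0 and 30.5, and 40.6 and 49.9 without the replicate 1 libraries. TA replicate 5, the highest library, also had the highest mural marker sum, 157242, and the part of mural cells was not tested. *Ptgfrn*, a membrane protein that associates with the prostaglandin F2 alpha receptor, was 32.4 times as high in EVP as in D and 9.97 times as high in TA as in D (limma, adjusted p = 8.39e-06 and 0.000975).

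*Tbxa2r*, the thromboxane receptor gene, ran in the opposite direction. It had 45.5 ± 8.78 normalized counts in EVP, 292 ± 222 in TA and 768 ± 375 in D (SD, n = 5), and EVP minus D was -3.96 on the log2 scale (SE 0.52; limma, adjusted p = 1.86e-05). No D library overlapped EVP. Between EVP and TA the limma adjusted p was 0.0228 and between TA and D 0.0352, and these calls were lost in 4 and 7 fits with 1 library left out. The 4 were those without EVP replicates 2, 3 or 4 or TA replicate 1 (limma, adjusted p up to 0.0627), and the 7 those without TA replicates 3 to 5 or D replicates 2 to 5 (limma, adjusted p up to 0.109). Without all replicate 1 libraries the limma adjusted p was 0.0791 between EVP and TA and 0.0101 between TA and D. Of 6 platelet markers, 3 were higher in D than in EVP and none the reverse, and 2 were higher in TA than in EVP. Between TA and D, 1 was higher in TA and 1 in D. *Itgb3* made up most of the platelet sum in D (median 3496 normalized counts), while *Pf4* and *Ppbp* had their highest medians in TA (1031 and 114). The part of platelets and of endothelial cells in the *Tbxa2r* level was not tested. *Ptger1*, the EP1 receptor gene, had 0 to 4.80, 0 to 22.3 and 1.81 to 8.16 normalized counts in EVP, TA and D. The prostaglandin D2 receptor genes *Ptgdr* and *Ptgdr2* had means of 5.49 or less in each population, and the highest single value was 24.6 for *Ptgdr* in EVP replicate 1.

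The leukotriene branch and other lipoxygenases draw on the same arachidonic acid. *Alox12*, the platelet-type 12-lipoxygenase outside the leukotriene branch, had 30.8 ± 16.4 normalized counts in EVP, 185 ± 124 in TA and 728 ± 206 in D. D was 23.6 times EVP and 3.94 times TA (limma, adjusted p = 1.96e-05 and 0.0121). *Lta4h*, the leukotriene A4 hydrolase, was lower in EVP than in D by 1.38 times and than in TA by 1.44 times (limma, adjusted p = 0.0216 and 0.0423). Leaving out 1 library lost these calls in 3 and 11 of 15 fits, namely without EVP replicates 2 or 4 or D replicate 5 for the former, and in all but those without EVP replicate 5, TA replicates 2 or 5 or D replicate 2 for the latter (limma, adjusted p up to 0.0677 and 0.118). Without all replicate 1 libraries the limma adjusted p was 0.075 and 0.111. *Alox5ap*, the activating protein of 5-lipoxygenase, was 7.92 times as high in TA as in D (limma, adjusted p = 0.0395), a call lost without any 1 of TA replicates 2 to 5 or D replicates 2 to 5, with adjusted p up to 0.102 by limma.

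**Figure D5:**
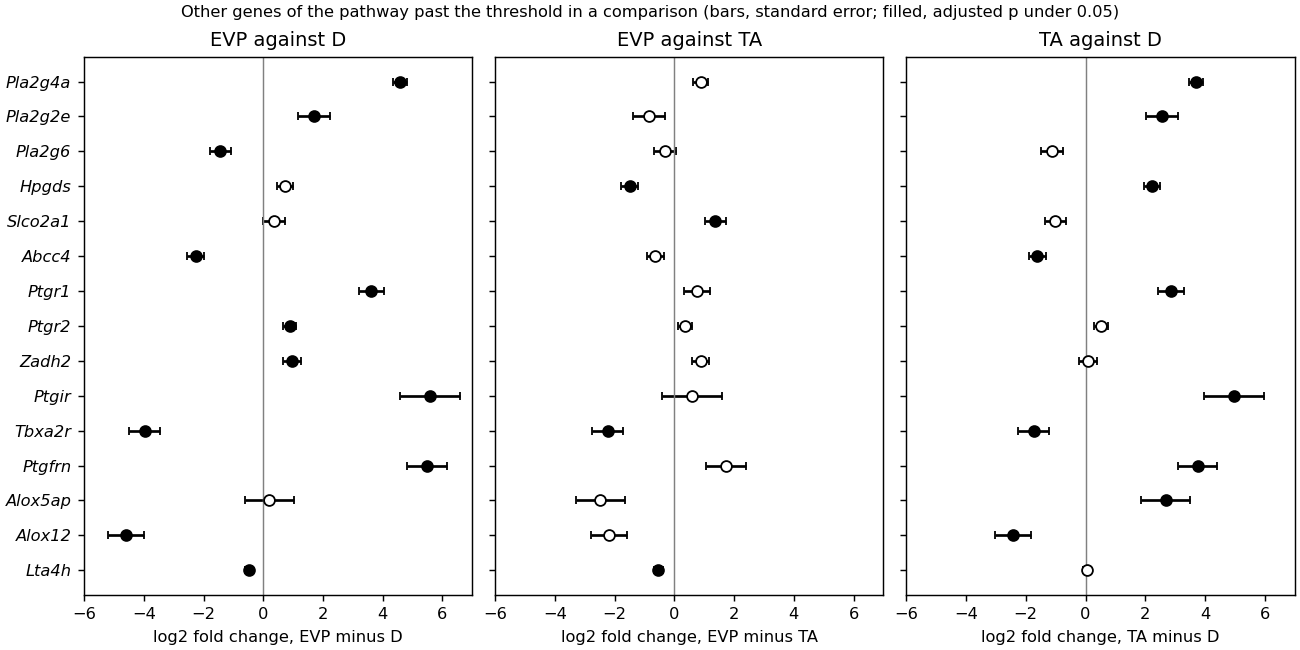
Log2 fold change of the 15 other genes of the pathway that were past the threshold in at least 1 comparison, for EVP minus D (left), EVP minus TA (middle) and TA minus D (right). Bars are standard errors and filled points have a limma adjusted p under 0.05. *Pla2g4a*, *Ptgir* and *Ptgfrn* lie above 4 and *Alox12* below -4 between EVP and D.

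For 4 synthesis genes the genes with the most similar profile over the 15 libraries were listed by the root mean square difference of log2 values, each gene centered on its own mean. For *Ptgs2* these were *Ncam1* (0.59), *Timp1* (0.60) and *F3* (0.63), and for *Ptges* they were *Gpc6* (0.45), *Fbln1* (0.49) and *F3* (0.56). *F3*, tissue factor, stood near both, with means of 3646, 1408 and 80.1 normalized counts in EVP, TA and D. *Ptgis* was nearest to *Ssc5d* (0.92), *Cyp1b1* (0.98) and *Tnfsf13b* (0.99). *Ptgs1* was nearest to *Slc43a3* (0.40), *Ppa1* (0.44) and *Phldb2* (0.46), which also had their lowest mean in TA. The points share libraries and depth, so these distances describe the libraries.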

How the data were processed

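Libraries of sorted EVP, TA and D cells were made by the authors with a modified Smart-Seq2 protocol, which keeps neither strand nor molecular identifiers. Per the study's methods and the submitters' processing notes, reads were aligned to GRCm38 with STAR 2.5.3a, counted per gene with HTSeq-count, and normalized with DESeq2 1.10.1. The deposited normalized counts are signal values: the authors divided each library's gene counts by its size factor. Whole reads were recovered from them (100% of values whole within 0.01). Tables of the authors' own comparisons hold fold changes and p-values and were not used.

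Of 53465 genes, 25549 reached a mean of 5 normalized counts and were analyzed as log2(normalized count + 1), and fold changes on this scale understate those of low genes. The main test was a limma 3.58.1 model (R 4.3.3) of all 15 libraries with a mean-variance trend and 1 coefficient for each population. Tests were two-sided, and a gene was past the threshold at a p-value under 0.05 after Benjamini-Hochberg adjustment. Folds without a scale are ratios of mean normalized counts. Where all D libraries were at or under 3 reads, the fold was computed against 3 reads per library. Gene coordinates and exon lengths came from GENCODE M21 (GRCm38), and upstream sequences from RefSeq (GRCm38.p6).

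The 10 genes, the pathway list, the motifs and the marker lists were chosen with earlier results of these data known. Named were all 10 genes, the pathway genes past the threshold in any comparison, *Ptger1*, *Ptgir*, *Hpgd*, *Slco2a1*, *Tbxas1*, *Hpgds* and *Pla2g4a* whatever their values, and the 3 genes nearest in profile to each of *Ptgs1*, *Ptgs2*, *Ptgis* and *Ptges*. The genes under the filter were added after their values were seen. Marker lists covered endothelial, fibroblast, mural, macrophage, mast cell, lymphocyte, platelet, melanoma, keratinocyte and dissociation genes. The fits were tested on simulated data. Alternatives used a pseudocount of 0.5 or 8, a minimum mean of 20 or no minimum, 2 other scalings, array weights, only the 2 populations compared, a block for the replicate number, edgeR 4.0.16 and DESeq2 1.42.0 on whole reads, and fits without each library or without replicate 1 of every population.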

Additional observations from a re-analysis of the deposited data

Results flagged for a closer look

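The 10 genes and 18 named pathway genes in 3 populations gave 84 sets of 5 libraries, taken as log2(normalized count + 1). In 9 sets the highest or lowest library had a gap to its nearest neighbor above 0.71 of the whole range, Dixon's 95% limit. Gaps on the scale of normalized counts differ from these. Chance alone gives about 1 in 20 such sets if values are normally distributed. Sets with mostly no reads, such as *Ptger3* in D, are not. In 3 of them D replicate 1 was the highest D library: *Ptgs2* (gap of 0.727 of the range, at 284 normalized counts), *Ptger3* (1.000, at 22.0) and *Ptgfr* (0.731, at 35.7). In TA, replicate 3 was the lowest library for *Ptgr2* (0.865, at 258) and *Zadh2* (0.744, at 193). *Hpgds* had a low value in EVP replicate 3 (0.717, at 226) and a high value in D replicate 5 (0.730, at 366). *Pla2g6* was low in D replicate 2 (0.718, at 283) and *Ptgfrn* in D replicate 3 (0.729, at 0.782).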

How the results depend on the processing

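The 10 genes kept their direction in every comparison under all alternatives, and no pathway gene turned direction in a comparison in which it was past the threshold. Several pathway genes turned in comparisons in which they were not past it. Examples among the named genes follow. *Alox5ap* turned from 0.21 to -0.91 and *Tbxas1* from 0.41 to -0.07 (log2, EVP minus D) with quantile normalization. With 1 library left out, *Ptgir* fell from 0.60 to as low as -0.10 and *Tbxas1* rose from -0.17 to as high as 0.41 (log2, EVP minus TA). In such fits *Zadh2* fell from 0.09 to as low as -0.06 and *Lta4h* from 0.06 to as low as -0.01 (log2, TA minus D). *Slco2a1* turned from 0.36 to -0.05 (log2, EVP minus D) without replicate 1 of every population. Counts of genes past the threshold moved by more than 1.5 times in some settings, and the cause was not tested. Between EVP and D the count of all genes moved from 4859 to 7609 with array weights. Between TA and D it moved from 3199 to 2117 with quantile normalization and to 5054 with array weights. Between EVP and TA it moved from 893 to 1900 with DESeq2 and to 522 without replicate 1 of every population. In that comparison the other pathway genes numbered 7 with a pseudocount of 8 or with DESeq2, 2 without a filter and 1 without replicate 1, against 4, and the 10 prostaglandin genes numbered 5 with a pseudocount of 8, with only the 2 populations or with DESeq2, against 3. The share of all genes was 4.56% with a pseudocount of 8, 2.58% with only the 2 populations and 7.44% with DESeq2, against 3.50%. It was 1.39% without a filter and 2.68% without replicate 1. With 1 library left out, all genes ranged from 4106 to 5150 (EVP and D), 428 to 1209 (EVP and TA) and 2403 to 3581 (TA and D), pathway genes from 9 to 13, 1 to 5 and 8 to 12, and the prostaglandin genes from 6 to 8, 1 to 4 and 5 to 8. The share of all genes in these fits ran from 15.8% to 21.0%, 1.66% to 4.66% and 9.25% to 16.5%. The EVP and TA counts of all genes were lowest without EVP replicate 2 (428), EVP replicate 3 (471) and TA replicate 3 (568). Same-total scaling moved the split between EVP and TA from 398 higher in EVP and 495 in TA to 237 and 714, and quantile normalization that between EVP and D from 2952 and 1907 to 1920 and 1983. With only the 2 populations fitted, the split between EVP and TA was 387 and 272, and with edgeR 214 and 449. Deviations of same-numbered libraries from their population means correlated at -0.14 to 0.69. Those numbered 1, 4 and 5 correlated best with their own number in all 3 comparisons, and those numbered 2 and 3 did not in each, and the labels name nothing that same-numbered libraries share, so the libraries were not treated as pairs. With the replicate number as a block, 8 prostaglandin genes and 13 pathway genes were past the threshold between EVP and D, 4 and 7 between EVP and TA, and 8 and 13 between TA and D, beside 22.3%, 4.94% and 15.8% of all genes in that fit. *Hpgd* then passed between EVP and D (limma, adjusted p = 0.00423). In D, *Ptger3* and *Ptgfr* were at or under the detection limit of 3 reads in 4 of 5 libraries each, which limits their folds.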
